A study of Mus musculus with 3 samples.

Results

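The genes described here carry out mitosis and cytokinesis: mitotic kinases and the spindle checkpoint, the kinetochore, spindle motors, the cytokinesis machinery and condensin. They were taken from a list of 41 symbols, and 40 of these were measured by a probe set annotated with exactly 1 gene symbol, out of 17097 such genes on the array. For Nuf2 the promoter was searched, and its expression was not analysed here. Where several probe sets matched a gene, the brightest on average was used. The RNA came from mouse mammary cells sorted at embryonic day 14 for high CD49f, the integrin alpha 6 chain of basal epithelium, and high green fluorescence. The female embryos carried the reporter allele Lgr5-IRES-GFP, in which the fluorescent protein follows the expression of Lgr5, a receptor of R-spondins. All 3 Affymetrix arrays belonged to this 1 group, each sample pooling female embryos, and no other genotype, stage or cell population was set against it. The labels call the samples biological replicates but do not make clear whether each came from a litter of its own, so the spread between arrays may be partly technical. The tissue digested was epidermis together with mammary gland, so cells of both could enter the sort.

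Mitosis depends on kinases of the Cdk1, Polo and Aurora families, which condense chromosomes, build the spindle and bind it to kinetochores. The spindle checkpoint holds the anaphase-promoting complex in check until every kinetochore is attached, after which separase cuts cohesin and the central spindle directs the cleavage furrow. Many of these genes are known to be silent in resting cells and to be transcribed late in the cell cycle, through promoter elements called the CCAAT box, bound by NF-Y, and the cell cycle homology region (CHR), bound by MuvB-containing complexes. The mouse mammary bud of this stage is known for slow growth before it sprouts.

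A value is a log2 expression level as deposited, and each array had its own background threshold, the 95th percentile of 74 olfactory and vomeronasal receptor genes. The thresholds were 6.14, 6.17 and 5.99 on replicates 1, 2 and 3. A gene was called above background when its mean height over these thresholds passed limma's one-sided test with a Benjamini-Hochberg adjusted p under 0.05 over all 17097 genes. The arrays were not equally alike. Over all genes, the difference between replicates 2 and 1 had an SD of 0.20, whereas replicate 3 differed with an SD of 0.60 from replicate 1 and 0.59 from replicate 2. Replicate 3 also had a higher median over all probe sets (6.52, against 6.25 on each of the others). With each array sorted by value, replicates 1 and 2 differed by at most 0.058, and replicate 3 by up to 0.45 from each. Whether replicate 3 was normalized apart is not given in the sources used here. Markers of the sorted cells gave a signal on all arrays, with Lgr5 at 9.99, 10.04 and 10.78 and Itga6 at 10.05, 10.24 and 10.82 on replicates 1, 2 and 3. Of 7 dermal mesenchyme markers 6 were above background (55.1% of all genes were). The same number was called at each of the 3 higher thresholds, at which 31.6% to 47.8% of all genes were. Summed linear values of the 7 markers were 22901, 20929 and 19291 on replicates 1, 2 and 3. For comparison, the mitosis genes summed to 17723, 17763 and 21294. All genes tested summed to 5065939, 5031182 and 6230727, also highest on replicate 3. These lists differ in their number of genes, so their sums do not compare with each other. Of 5 erythroid markers 3 were above background, near the share of all genes, and 1 (Hba-a1) against tissue-restricted genes (all genes, 33.6%). Their sums were 5520, 6869 and 2673. The part of mesenchymal or erythroid cells in the mitosis signal was not tested. In pooled RNA, fewer dividing cells and less mitotic RNA per dividing cell cannot be told apart.

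The promoters of these genes shared sequence elements that played no role in choosing them. RefSeq windows of 300 bases (build GRCm38.p6, 250 before and 50 from the gene start on) were at hand for 34 of the 41 listed genes. They were searched on both strands for CCAAT, for the CHR letters TTTGAA, for the variant TTCGAA and for the E2F-type letters TTTNNCGC. TTTGAA occurred in 25 of 34 mitosis genes (73.5%), against 15.6% of the 13605 genes on the array that have a window and 20.2% of all 27025 genes of the table. CCAAT occurred in 25 of 34 (73.5%), against 42.3% of the genes on the array and 41.1% of all. Both were found for 22 mitosis genes (64.7%), against 6.17% of the genes on the array and 7.97% of all. The variant TTCGAA was found in 4 mitosis genes (11.8%, against 2.23% of the genes on the array and 1.80% of all) and TTTNNCGC in 5 (14.7%, against 8.22% and 5.93%). The base composition of the windows was close, with a median GC content of 59.3% for mitosis genes and 58.5% for genes on the array. These are counts of letters in a window, not bound sites.

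Most CHR letters lay near the gene start. Of 34 TTTGAA matches in the mitosis windows, 25 (73.5%) began within 50 bases of the gene start on either side, against 70.2% of the 47 matches in windows of other mitotic genes and 23.6% of the 2555 in windows of genes on the array. In windows with both elements, the centre of the nearest CCAAT lay a median of 25.5 bases from that of TTTGAA in mitosis genes, against 28.5 bases in other mitotic genes and 61.5 bases in genes on the array. More CCAAT matches shorten the distance to the nearest by construction. A window with 2 or more was found for 41.2% of mitosis genes, 29.7% of other mitotic genes and 14.9% of genes on the array. The distance was within 50 bases in 17 of the 22 mitosis genes with both elements, against 373 of 839 genes on the array. It was longer in Aurka (51.5), Cenpf (73.5), Cenpa (102.5), Ncapg (146.5) and Bub1b (153.5). Of the 3 kinetochore genes with both, only Spc25 (47.5) lay within 50 bases, and their median was 73.5. The stretches below are examples picked from these 17 genes and do not show the longer distances. They are read in the direction of the gene from 100 bases before the start to 30 bases after it. Capitals mark CCAAT or its reverse complement ATTGG and TTTGAA or its reverse complement TTCAAA.
Cdc20 (chr4:118437314-118437443, minus strand): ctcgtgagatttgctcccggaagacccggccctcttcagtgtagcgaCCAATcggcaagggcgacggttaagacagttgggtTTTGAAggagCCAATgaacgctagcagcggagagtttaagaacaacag
Espl1 (chr15:102296193-102296322, plus strand): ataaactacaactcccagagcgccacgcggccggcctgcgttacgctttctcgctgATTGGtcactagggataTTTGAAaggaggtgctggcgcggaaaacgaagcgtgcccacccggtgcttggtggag
Ttk (chr9:83834589-83834718, plus strand): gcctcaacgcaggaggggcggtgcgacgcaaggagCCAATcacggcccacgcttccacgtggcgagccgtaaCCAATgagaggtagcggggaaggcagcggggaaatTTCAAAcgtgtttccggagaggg
Spc25 (chr2:69206184-69206313, minus strand): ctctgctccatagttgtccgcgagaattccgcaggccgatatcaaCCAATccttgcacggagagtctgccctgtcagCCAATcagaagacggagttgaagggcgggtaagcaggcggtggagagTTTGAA
Kif11 (chr19:37376282-37376411, plus strand): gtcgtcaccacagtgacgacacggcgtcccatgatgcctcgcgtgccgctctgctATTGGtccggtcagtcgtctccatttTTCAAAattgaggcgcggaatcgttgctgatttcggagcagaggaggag
Kif23 (chr9:61946770-61946899, minus strand): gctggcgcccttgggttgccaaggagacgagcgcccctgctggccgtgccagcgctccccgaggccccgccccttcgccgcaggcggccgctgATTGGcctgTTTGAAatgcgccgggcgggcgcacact
Racgap1 (chr15:99651627-99651756, minus strand): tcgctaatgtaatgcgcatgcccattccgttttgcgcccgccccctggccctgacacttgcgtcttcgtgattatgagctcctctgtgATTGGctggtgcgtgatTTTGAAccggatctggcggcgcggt
Prc1 (chr7:80294351-80294480, plus strand): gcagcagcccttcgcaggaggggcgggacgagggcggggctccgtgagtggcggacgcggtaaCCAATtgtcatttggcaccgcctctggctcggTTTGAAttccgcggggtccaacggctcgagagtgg
Top2a (chr11:99024160-99024289, minus strand): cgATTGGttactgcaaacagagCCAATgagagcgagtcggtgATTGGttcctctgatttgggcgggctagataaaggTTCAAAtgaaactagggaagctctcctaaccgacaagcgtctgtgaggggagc
The stretch of Prc1 is from the first of its 2 windows. In Cdc20 the CHR letters stand between a pair of CCAAT boxes, and in Espl1, Kif11, Racgap1 and Kif23 an inverted CCAAT box lies just upstream of them. Top2a carries 3 CCAAT boxes in either orientation in this stretch. In contrast, the windows of Mad2l1, Birc5, Pttg1, Nusap1, Ncaph and Nuf2 held neither CCAAT nor TTTGAA nor TTCGAA. The stretches of Mad2l1 and Birc5 are given for comparison and have no capitals.
Mad2l1 (chr6:66535121-66535250, plus strand): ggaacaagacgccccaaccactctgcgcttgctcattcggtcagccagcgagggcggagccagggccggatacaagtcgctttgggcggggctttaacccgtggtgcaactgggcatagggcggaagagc
Birc5 (chr11:117849137-117849266, plus strand): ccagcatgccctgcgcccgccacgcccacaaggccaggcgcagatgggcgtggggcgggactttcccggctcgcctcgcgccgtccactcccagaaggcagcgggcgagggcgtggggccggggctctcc
Bub1 and Cdc25b, which lacked TTTGAA, had the variant TTCGAA just after the start, from base 15 in Bub1 and base 8 in Cdc25b, counted from 1 at the start. In the window of Cdca8 the last A of TTTGAA is also the first base of an inverted CCAAT box, so the matches overlap there.

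**Figure D1:**
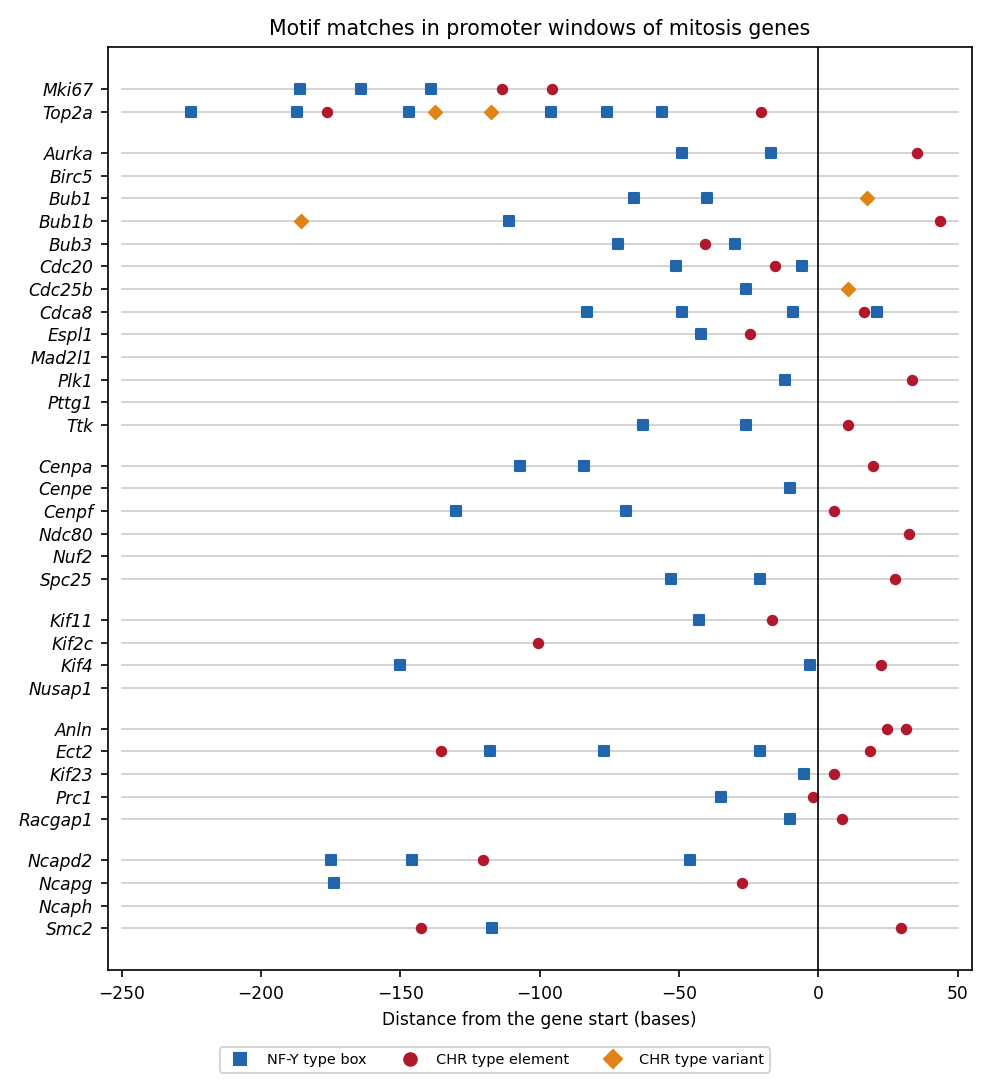
Matches in the promoter windows of the 34 mitosis genes with a RefSeq window, by distance from the gene start in bases (x axis) and gene (y axis, grouped by role, 1 window per gene). Squares are CCAAT (NF-Y type), circles TTTGAA (CHR type) and diamonds TTCGAA (CHR variant); 25 genes have a circle, mostly close to the start, and Birc5, Mad2l1, Pttg1, Nuf2, Nusap1 and Ncaph have no symbol.

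Of 40 measured genes, 38 were above background, against 55.1% of all genes tested. Above the threshold on each of the 3 arrays were 39 of the 40, and 10023 of all 17097 genes tested. The median height of the mitosis genes over the threshold was 2.55 on the log2 scale, against 0.78 for all genes tested and 2.06 for the genes above background. More than 2 log2 units above the threshold were 24 mitosis genes (60.0%), against 28.6% of all genes. Because probes differ in brightness, these heights describe the probe sets and do not rank the genes by RNA amount. The count was 37 with the 99th percentile of the receptor genes as threshold (47.8% of all genes), 31 against a background of tissue-restricted genes (33.6%) and 29 against the brightest antigenomic control, a probe with no target in any genome (31.6%). It was 28 of the 30 genes that could be tested without probe sets marked as shared between transcripts or genes (53.9% of all), 35 when probe sets of a gene were averaged (53.1%) and 39 without replicate 3 (58.5%). With replicates 1 and 2 averaged as 1 sample, an alternative chosen after seeing the data, it was 38 (53.1%). The 2 genes not called above background, Anln and Ect2, both belong to cytokinesis. Anln was called in 4 of the 13 alternatives that tested it, and Ect2 in 0 of 12.

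**Figure D2:**
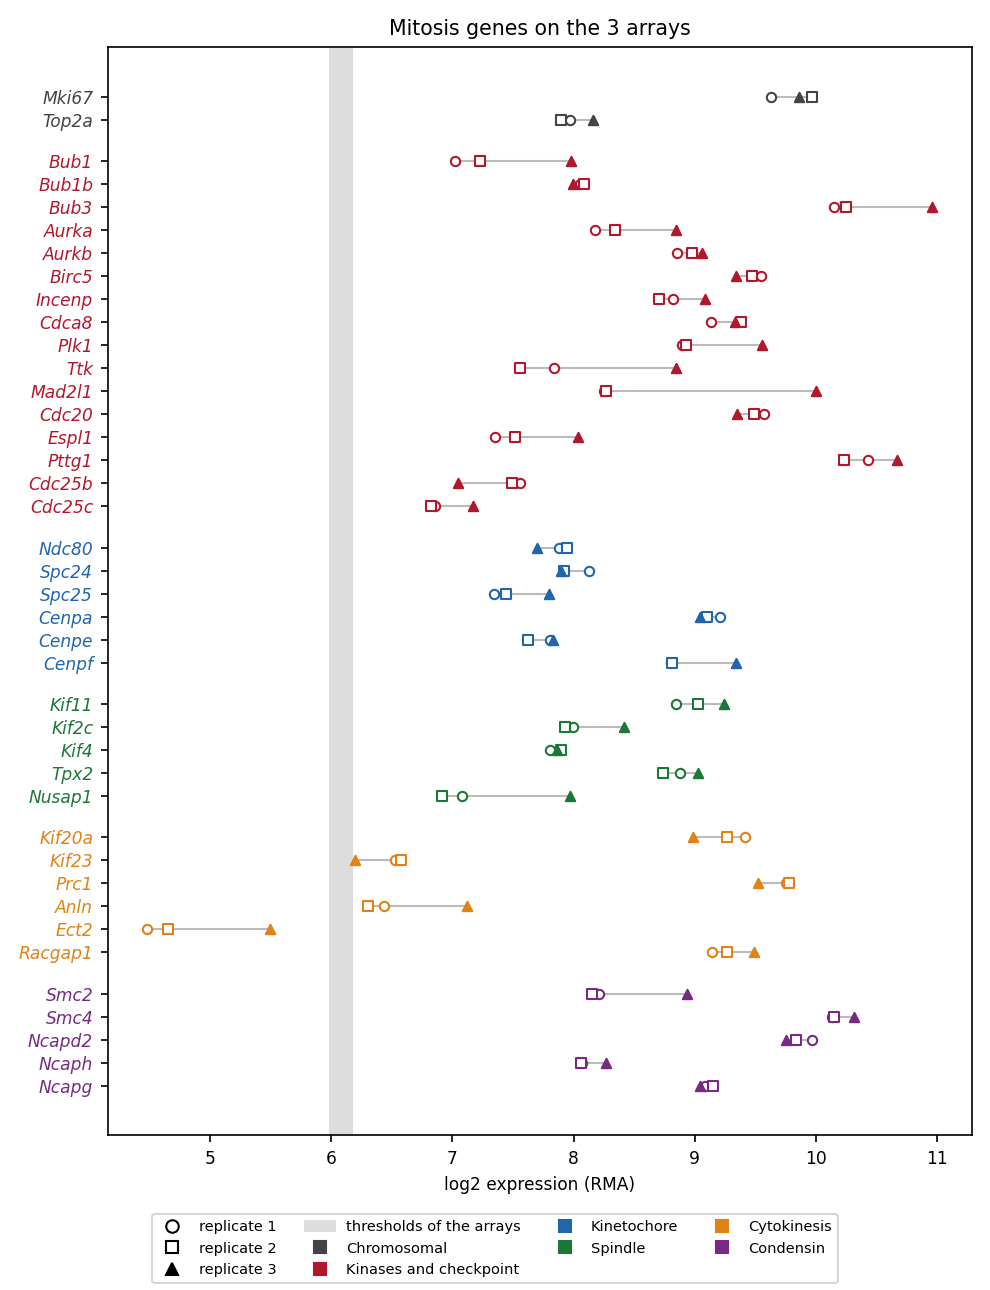
log2 expression (x axis) of the 40 measured mitosis genes on the 3 arrays, with open circles, open squares and filled triangles for replicates 1, 2 and 3 and colours for roles. The grey band spans the background thresholds of the arrays; all genes but Ect2 lie to its right on every array, and the triangles of Mad2l1, Ttk and Nusap1 stand away from the other symbols.

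**Figure D3:**
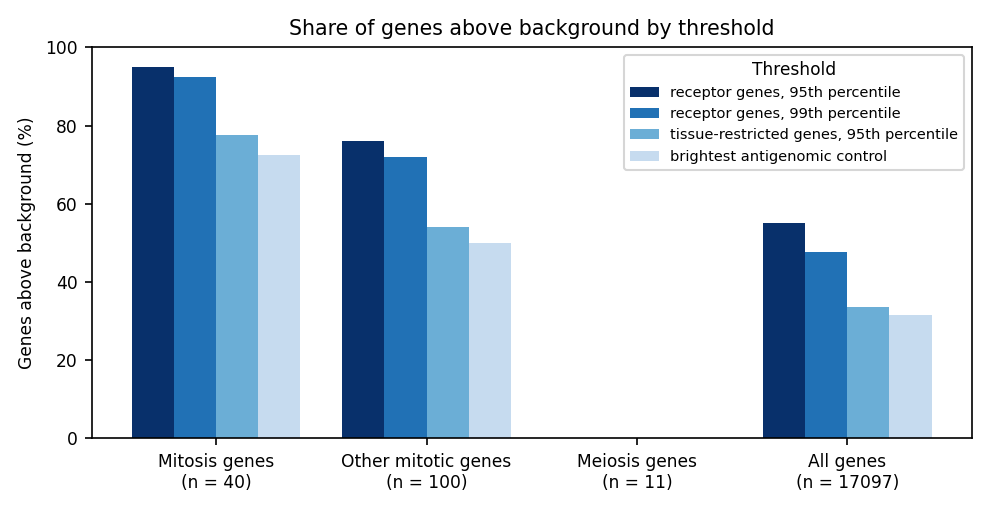
Percentage of genes above background (y axis, limma adjusted p under 0.05) under 4 thresholds, for the mitosis genes, other mitotic genes, meiosis genes and all genes tested. The mitosis genes go from 38 of 40 at the lowest threshold to 29 of 40 at the highest, all genes from 55.1% to 31.6%, and no meiosis gene is called.

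Mki67 and Top2a, the chromosome-bound proteins most used to mark dividing cells, were both above background. Mki67, whose product coats mitotic chromosomes, gave log2 levels of 9.63, 9.96 and 9.86 on replicates 1, 2 and 3, 3.72 above the threshold (limma adjusted p = 3.21e-05). Replicate 1 was the lowest and the arrays lay close together. Top2a encodes the topoisomerase that untangles sister DNA and had 7.97, 7.89 and 8.16, 1.91 above the threshold (limma adjusted p = 0.000246). That value rests on 1 of its 3 probe sets, as the others lay at -0.23 and -0.91 relative to the threshold.

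All 16 kinase and checkpoint genes were above background, against 55.1% of all genes. Plk1, the Polo-like kinase of mitotic entry and spindle assembly, gave log2 levels of 8.89, 8.93 and 9.55 on replicates 1, 2 and 3. Aurka, the Aurora kinase of the spindle poles, had 8.18, 8.34 and 8.85. Both were highest on replicate 3 and similar on the other arrays. The chromosomal passenger complex, which corrects wrong attachments and later moves to the central spindle, had all 4 of its genes above background. Its kinase Aurkb had 8.85, 8.98 and 9.06, its scaffold Incenp 8.82, 8.71 and 9.08, survivin (Birc5) 9.54, 9.47 and 9.34 and borealin (Cdca8) 9.14, 9.38 and 9.33. All 4 stood at least 2.77 above the threshold, with limma adjusted p from 3.35e-05 to 9.71e-05, and varied by an SD of 0.19 or less. The Aurkb probe set with the highest mean carries the manufacturer's mark for probes that may match other genes.

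Among the spindle checkpoint genes, Mad2l1 had the largest SD of the 40 measured genes (1.01) and Bub1b the smallest. Mad2l1 encodes Mad2, which binds and inhibits Cdc20, and gave log2 levels of 8.25, 8.27 and 10.00 on replicates 1, 2 and 3. It was above background (limma adjusted p = 0.00197), with replicate 3 far above 2 nearly equal arrays. Ttk, the Mps1 kinase that starts the checkpoint signal, had 7.84, 7.56 and 8.85, and the checkpoint kinase Bub1 had 7.02, 7.23 and 7.98. Both were again highest on replicate 3. Bub3, the adaptor that brings Bub1 and BubR1 to kinetochores, had 10.15, 10.25 and 10.96. Bub1b, the BubR1 gene, had 8.05, 8.08 and 8.00, with an SD of 0.043. Bub1 was not called with tissue-restricted genes as background, and neither Bub1 nor Ttk with the antigenomic control as threshold.

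Cdc20, Pttg1 and Espl1 act at the step from metaphase to anaphase. Cdc20, the activator of the anaphase-promoting complex that the checkpoint restrains, gave log2 levels of 9.57, 9.49 and 9.35 on replicates 1, 2 and 3 (limma adjusted p = 3.32e-05). Pttg1 encodes securin, the inhibitor and chaperone of separase, and had 10.42, 10.23 and 10.67 (limma adjusted p = 2.79e-05). Espl1, separase itself, had 7.36, 7.52 and 8.04, 1.54 above the threshold (limma adjusted p = 0.00129). Cdc20 and Pttg1 were called at each of the 4 thresholds, and Espl1 at 2 of them, losing its call against tissue-restricted genes (limma adjusted p = 0.123) and the antigenomic control (limma adjusted p = 0.256). The Cdk1-activating phosphatase genes Cdc25b and Cdc25c were nearer to background. Cdc25b had 7.56, 7.49 and 7.05, lowest on replicate 3, and Cdc25c had 6.86, 6.82 and 7.17, highest on it. Relative to the threshold from tissue-restricted genes, Cdc25b stood at 0.12 and Cdc25c at -0.30.

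All 6 measured kinetochore genes were above background, against 55.1% of all genes. Cenpa encodes the histone H3 variant that marks centromeres and gave log2 levels of 9.21, 9.10 and 9.04 on replicates 1, 2 and 3, 3.02 above the threshold (limma adjusted p = 4.62e-05). Cenpf, a large protein of the outer kinetochore, had 8.81, 8.81 and 9.34, with replicate 3 above the other arrays. The Ndc80 complex couples kinetochores to microtubules, and 3 of its 4 subunit genes were measured. Ndc80 had 7.88, 7.94 and 7.70, Spc24 had 8.13, 7.92 and 7.89 and Spc25 had 7.34, 7.45 and 7.80. Ndc80 and Spc24 were lowest on replicate 3 and Spc25 was highest there. Their heights over the threshold were 1.74, 1.88 and 1.43, with limma adjusted p of 0.000196, 0.000178 and 0.000944. Cenpe, the kinesin that moves chromosomes to the spindle equator, had 7.80, 7.62 and 7.83. Of the 6, 5 were called against tissue-restricted genes (33.6% of all genes were), without Spc25 (limma adjusted p = 0.175). Against the antigenomic control 4 were called (31.6% of all genes were), without Spc25 (limma adjusted p = 0.455) and Cenpe (limma adjusted p = 0.0533).

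The 5 spindle genes were above background as well, against 55.1% of all genes. Kif11, the Eg5 motor that pushes spindle poles apart, gave log2 levels of 8.85, 9.03 and 9.24 on replicates 1, 2 and 3, and its 2 probe sets lay at 2.94 and 2.90 above the threshold. Tpx2, which recruits and activates Aurora A on spindle microtubules, had 8.88, 8.74 and 9.03. The microtubule depolymerase gene Kif2c had 8.00, 7.93 and 8.41 and the chromokinesin gene Kif4 had 7.80, 7.90 and 7.86. Kif4 had an SD of 0.049, among the smallest of the set. Nusap1, a microtubule bundling protein, had 7.08, 6.92 and 7.97 and was above background (limma adjusted p = 0.008) with replicate 3 the highest. It lost its call against tissue-restricted genes and against the antigenomic control.

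Of the 6 cytokinesis genes 4 were above background (66.7%), near the 55.1% of all genes. The probe sets used for Prc1, Kif20a and Racgap1 were well above background, whereas those for Kif23, Anln and Ect2 lay near or below it. Prc1 bundles the antiparallel microtubules of the central spindle and gave log2 levels of 9.75, 9.77 and 9.52 on replicates 1, 2 and 3. Kif20a, the kinesin that carries the passenger complex to the midzone, had 9.41, 9.27 and 8.99, and Racgap1, the GTPase-activating part of centralspindlin, had 9.14, 9.26 and 9.49. These 3 stood 3.58, 3.12 and 3.20 above the threshold (limma adjusted p = 2.78e-05, 4.62e-05 and 5.88e-05). Kif23, the kinesin partner of Racgap1 in centralspindlin, had 6.52, 6.57 and 6.20, only 0.33 above the threshold (limma adjusted p = 0.0428), and it lost its call at each of the 3 other thresholds. Its other probe set lay at -1.32. Anln, the anillin scaffold of the contractile ring, had 6.44, 6.30 and 7.13 and did not pass the test (limma adjusted p = 0.0697), although each array lay above its threshold. Ect2, which activates RhoA at the furrow, had 4.48, 4.66 and 5.50 and was below the threshold on every array. Ect2 had 1 probe set, and a dim probe set does not show that a transcript is absent.

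By the probe sets used, all 5 condensin genes stood more than 2 log2 units above the threshold, against 28.6% of all genes. They kept their call at each of the 4 thresholds, at which 31.6% to 55.1% of all genes were called. The ATPase core gene Smc4 gave log2 levels of 10.13, 10.15 and 10.31 on replicates 1, 2 and 3 (limma adjusted p = 2.46e-05), and its partner Smc2 had 8.21, 8.15 and 8.94 (limma adjusted p = 0.000451). The condensin I subunit genes had SDs of 0.12 or less. Ncapd2 had 9.96, 9.84 and 9.76, Ncapg had 9.09, 9.15 and 9.05 and Ncaph had 8.07, 8.06 and 8.27. Among the condensin probe sets used, that of Smc2 varied most (SD 0.44), with replicate 3 above the other arrays. Another Smc4 probe set had an SD of 0.53. The 4 probe sets of Smc2 did not move alike: those with the highest and second highest means differed on replicate 3, at 8.94 and 7.36. The Smc2 probe sets not used lay 1.79, 1.25 and 0.55 above the threshold, and that of Ncapg 1.28.

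Several calls rested on 1 probe set among others that disagreed. Of the 40 genes, 18 had 1 probe set and 22 had several, and the probe sets of 10 genes lay on both sides of the threshold. These 10 were Top2a, Bub1, Bub1b, Bub3, Incenp, Ttk, Cenpf, Nusap1, Kif23 and Anln. The median gap between the highest and lowest probe set of a gene was 1.69, and the largest was 5.88 for Bub3, whose 4 probe sets lay at 4.35, 1.23, -0.24 and -1.52 relative to the threshold. Pttg1, in contrast, had all 3 of its probe sets at 2.09 or more. With the lowest probe set of each gene, 29 mitosis genes were above background (41.3% of all genes were). For 9 genes the probe sets differed in whether replicate 3 was higher or lower than the other arrays. These 9 were Bub1b, Bub3, Cenpa, Incenp, Kif23, Ncapg, Prc1, Smc2 and Smc4.

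**Figure D4:**
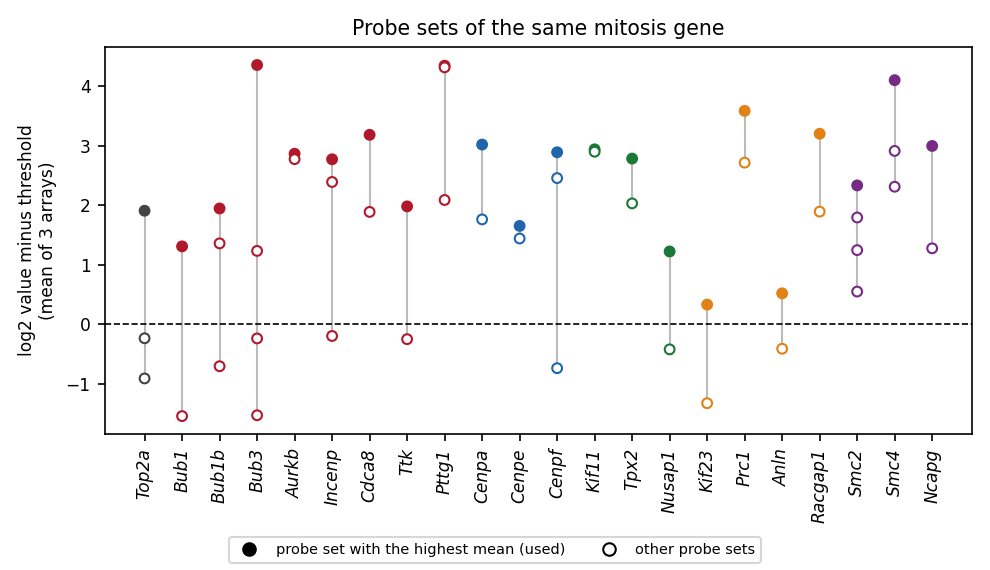
Height over the background threshold (log2, mean of 3 arrays, y axis) of every probe set of the 22 mitosis genes that have several (x axis, coloured by role). Filled points are the probe sets used and open points the others; the dashed line is the threshold, and 10 genes, among them Bub3 and Top2a, have points on both sides of it.

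The arrays differed in mitosis genes about as they did in other genes. On replicate 3, the 38 mitosis genes above background were a median of 0.21 higher than the mean of the other arrays, against 0.24 for all 9426 genes above background. They were higher on that array in 26 of 38 cases (68.4%), against 66.8% of all genes above background. The sign of this median depended on the scaling: it was -0.06 for mitosis genes and -0.03 for all genes above background when each array was centred on its median, which moves all genes of an array by 1 amount, and -0.21 and -0.13 after quantile normalization. Replicate 3 is 1 sample, so this difference has no test. More than 0.5 higher on replicate 3 as deposited were 10 of the 38 mitosis genes, against 31.7% of all genes above background. Over the arrays, the median SD was 0.19 for the 40 mitosis genes and 0.23 for all genes tested.

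Single genes stood further apart. Mad2l1 was 1.74 higher on replicate 3 than the mean of the other arrays as deposited, 1.47 after centring and 1.32 after quantile normalization. For Ttk the differences were 1.15, 0.88 and 0.74, for Nusap1 0.97, 0.70 and 0.60, and for Bub1 0.85, 0.58 and 0.48. By the probe sets used, 15 of the 40 genes were higher on replicate 3 under each of these scalings and 12 were lower under each. The direction of the other 13 depended on the scaling. Those lower included Cdc25b (-0.47 as deposited), Kif20a (-0.35), Kif23 (-0.35) and Prc1 (-0.24). The other probe sets of Kif23 and Prc1 were higher on replicate 3 as deposited (0.16 and 0.10). As deposited, 25 of the 40 genes (62.5%) were highest on replicate 3, against 63.1% of all genes tested. On the same array 12 of the 40 were lowest, against 27.9% of all genes. An SD over 0.5 was found for 5 of the 40, against 16.1% of all genes. Replicates 1 and 2 differed by no more than 0.33 in any mitosis gene. On replicate 3 the erythroid markers Hba-a1 (12.27, 12.61 and 11.19 on replicates 1, 2 and 3) and Klf1 (8.56, 8.66 and 7.22) were lower than on the other arrays as deposited, as was Epor (difference of -0.52), while Hba-x (5.47, 5.48 and 5.49) and Hbb-y (5.33, 5.30 and 5.64), both not above background, were not lower. In the same values the sort genes Lgr5 and Itga6 were higher (differences of 0.76 and 0.68), as was the basal gene Trp63 (0.57). The basal keratin genes Krt14 and Krt5 differed by 0.24 and 0.03, against a median of 0.24 for all genes above background. The part of cell composition, of the number of sorted cells, of amplification or of the submitters' normalization in these differences was not tested.

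**Figure D5:**
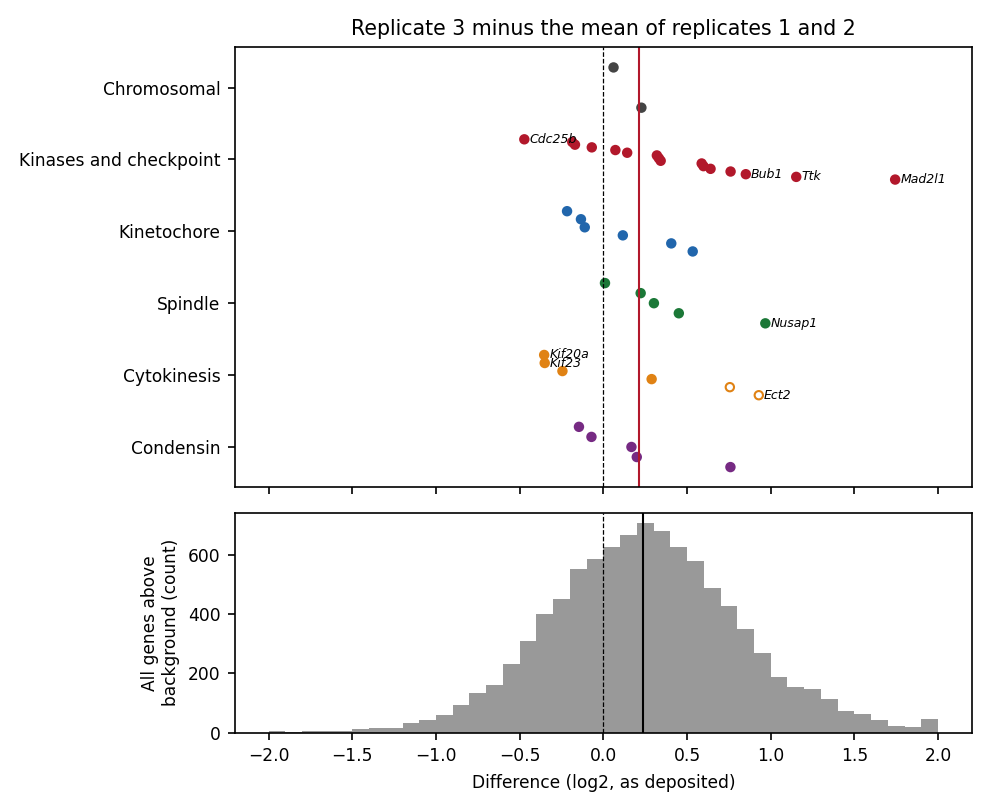
Upper panel, log2 value on replicate 3 minus the mean of replicates 1 and 2 as deposited (x axis) for each of the 40 mitosis genes by role (open points, genes not above background; red line, median of 0.21 over the 38 above background). Lower panel, number of all 9426 genes above background by the same difference (black line, median of 0.24; values beyond 2 in either direction are in the end bars); the medians nearly coincide and Mad2l1 lies far to the right.

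Other genes of the mitotic programme were above background in 76 of 100 measured cases (76.0%), against 55.1% of all genes, with a median height of 1.78. The anaphase-promoting complex and its E2 enzymes and regulators reached 14 of 14, including the scaffold subunit gene Anapc1 (9.22 ± 0.13, SD, n = 3) and Anapc4 (8.66 ± 0.077). Among genes of mitotic entry 8 of 10 were above background, such as the kinase gene Cdk1 (9.79 ± 0.22) and the cyclin gene Ccnb2 (8.32 ± 0.11). Mastl, the Greatwall kinase gene, was not (6.40, 6.39 and 7.41 on replicates 1, 2 and 3, limma adjusted p = 0.0674).

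Further kinetochore and centromere genes reached 19 of 31 (61.3%), near the 55.1% of all genes. Against tissue-restricted genes 9 of the 31 were called (33.6% of all genes) and against the antigenomic control 8 (31.6%). On the lowest threshold, Knl1, the scaffold of checkpoint signalling (8.43 ± 0.17), and Dsn1 (7.13 ± 0.65) were above background. Mis12, of the same linker complex as Dsn1, was not (5.41 ± 0.78, SD, n = 3). Cohesin genes reached 9 of 12, with the ring subunit genes Smc3 (7.68 ± 0.15) and Rad21 (9.03 ± 0.040) above background. Pds5b, a cohesin regulator, had 5.96, 6.07 and 8.41 on replicates 1, 2 and 3 and did not pass (limma adjusted p = 0.221). Other spindle genes reached 13 of 18, with Kif14 (6.53 ± 0.014) and Kif22 (7.17 ± 0.29) above background and Kif15 (6.39 ± 0.37) not. Other genes of cytokinesis and abscission reached 11 of 12, such as the citron kinase gene Cit (7.83 ± 0.50) and the furrow GTPase gene Rhoa (11.35 ± 0.26). The exception was Cep55, the midbody protein that recruits the abscission machinery (5.32 ± 0.74). Of the 3 condensin II genes, Ncapd3 (8.45 ± 0.11) and Ncaph2 (9.13 ± 0.098) were above background and Ncapg2 (5.80 ± 0.75) was not.

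Meiosis genes, several of them germ-line relatives of the mitotic ones, did not give this signal. None of 11 measured members was above background by limma, and none had an unadjusted p under 0.05, against 55.1% of all genes called. Sycp2, a gene of the synaptonemal complex, stood at 4.54 ± 0.064 (SD, n = 3). Aurkc, the germ-line Aurora kinase gene, had 4.91, 4.99 and 5.05 on replicates 1, 2 and 3, and the meiotic cohesin genes Rec8 and Stag3 had 5.45, 5.42 and 5.16 and 4.63, 4.53 and 4.79. They were named outside the rule as relatives of Aurka, Aurkb and the mitotic cohesins. In the 10 meiosis genes with a promoter window, TTTGAA was found in none and CCAAT in 6 (60.0%). Of the 91 other mitotic genes that have a window, 37 had TTTGAA and 48 had CCAAT. Among genes on the array the shares were 15.6% for TTTGAA and 42.3% for CCAAT, so 10 genes are too few to set meiosis genes apart from these.

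Marker genes of other cell types were mixed, and several lists did not stand clear of the 55.1% of all genes above background. In the dermal mesenchyme list Col1a1 (12.99 ± 0.15, SD, n = 3) and Col1a2 (7.99 ± 0.090) were above background and the receptor gene Pdgfra (4.89 ± 0.55) was not. In the endothelial list 2 of 5 were above background, Pecam1 (8.12, 8.30 and 6.47 on replicates 1, 2 and 3) and Egfl7 (7.29 ± 0.40), and Cdh5 (5.81 ± 0.27) was not. None of these 5 was called against tissue-restricted genes, a threshold at which 33.6% of all genes were called. Leukocyte markers reached 3 of 5, and 1 against tissue-restricted genes, including Csf1r (6.47 ± 0.14) and Cd68 (8.83 ± 0.26), and Ptprc, the CD45 gene, was at 4.03 ± 0.20. Among erythroid markers the embryonic globin gene Hbb-y (5.42 ± 0.19) was not above background. Melanoblast markers reached 2 of 5, Pmel (7.33 ± 0.26) and Sox10 (8.02 ± 0.22), and 1 (Sox10) against tissue-restricted genes. Dct (6.36 ± 0.58) was among those not above background. Summed linear values ranged from 500 to 631 over the arrays for the endothelial list, from 746 to 849 for the leukocyte list and from 548 to 678 for the melanoblast list. Because mesenchymal and erythroid precursors also divide, the cells that carried the mitotic RNA cannot be told apart in these pools.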

How the data were processed

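RNA of sorted mouse embryonic mammary cells was measured on 3 arrays of 1 group. Per the labels' protocols, cells were sorted into lysis buffer in differing numbers and their cDNA was amplified. The number for each sample is not given in the sources used here. The authors deposited log2 expression per probe set (45141 probe sets). RMA, with affy, is named in the submitters' processing notes. Versions, settings and a genome build are not given in the sources used here. RMA in general compresses differences of dim probe sets. Gene names came from the platform's annotation (28898 probe sets with 1 symbol, 551 with several, 15588 with none, besides 104 controls).

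From these values, each gene's log2 height over the threshold of its array was tested with limma 3.58.1 in R 4.3.3 by a one-sided test of the mean with trended variance moderation and Benjamini-Hochberg adjustment over 17097 genes. The p-values cover the spread over 3 arrays, not the error of the threshold itself. The fit was tested on simulated data. Tables were handled with Python 3.11.15, numpy 2.4.6, pandas 2.3.3 and matplotlib 3.10.9. The mitosis genes, lists and tests were chosen with earlier results of these data known. All mitosis genes were named. Of each other list, the first 2 genes in list order above background and the first not above it were named, and exceptions are marked in the text. Alternatives changed the threshold, the probe set rule, the normalization, the variance model, a filter on dim genes and the replicates. The number of arrays limits the precision.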

Additional observations from a re-analysis of the deposited data

How the results depend on the processing

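The count of mitosis genes above background was 38 as reported and stayed within 1.5 times of it in all 14 alternatives. It ranged from 28 of 30 tested without probe sets marked as shared between transcripts or genes to 39 without replicate 3. With 40 genes measured, the count could not rise beyond that limit. Centring on the array median moves values and thresholds alike, so it could not change a height or a call. The filter on dim genes drops them by the tested values, so it raises the median height by construction. Of the 40 genes, 24 kept their call in every alternative that tested them. The count over all genes was 5740 against tissue-restricted genes and 5399 against the antigenomic control, and that of other mitotic genes was 50 with the antigenomic control. The median height of the mitosis genes was 2.18 with the 99th percentile of receptor genes, 1.40 with tissue-restricted genes, 1.26 with the antigenomic control, 2.17 with the mean of probe sets, 1.97 with the lowest probe set, 2.11 without marked probe sets and 2.77 without dim genes. It ranged from 2.10 to 2.70 when 1 array was left out, lowest without replicate 3. The median difference of replicate 1 was 0.11 and that of replicate 2 was 0.10 after quantile normalization. That of replicate 3 was -0.21 after it and -0.060 after centring on the array median. With the 99th percentile of receptor genes, heights below the threshold were found for Kif23 (-0.038), Kif15 (-0.081) and Dct (-0.11). Against tissue-restricted genes, heights below the threshold were found for Cdc25c (-0.30), Kif23 (-0.82), Anln (-0.63), Mastl (-0.51), Dsn1 (-0.12), Kif14 (-0.72), Kif22 (-0.080), Kif15 (-0.86), Pds5b (-0.44), Csf1r (-0.78) and Dct (-0.88). With the antigenomic control, heights below the threshold were found for Cdc25b (-0.018), Cdc25c (-0.43), Nusap1 (-0.060), Kif23 (-0.95), Anln (-0.76), Mastl (-0.65), Dsn1 (-0.25), Kif14 (-0.85), Kif22 (-0.22), Kif15 (-0.99), Pds5b (-0.57), Egfl7 (-0.089), Csf1r (-0.91), Pmel (-0.050) and Dct (-1.02). With the mean of probe sets, heights below the threshold were found for Kif23 (-0.28). With the lowest probe set, heights below the threshold were found for Top2a (-0.69), Bub1 (-1.32), Bub1b (-0.48), Bub3 (-1.31), Ttk (-0.030), Cenpf (-0.52), Nusap1 (-0.20), Kif23 (-1.10), Anln (-0.19), Kif22 (-0.21), Pds5b (-0.27) and Ncapd3 (-0.50). Without marked probe sets, heights below the threshold were found for Top2a (-0.083) and Kif23 (-1.17). When 1 array was left out, the height of Pds5b ranged from -0.14 to 1.16 and that of Dct from -0.021 to 0.45. Kif23 lost its call without replicate 1 and without replicate 2. Anln gained a call in 4 of the 13 alternatives that tested it. With replicates 1 and 2 averaged as 1 sample, an alternative chosen after seeing the data, 38 mitosis genes and 9077 of all genes (53.1%) were above background, and Kif23 was not. With the mean of probe sets Top2a (0.47, limma adjusted p = 0.0564) and Bub1 (0.10, limma adjusted p = 0.486) also lost their call, and with the lowest probe set Incenp did (0.023, limma adjusted p = 0.823). A higher threshold lowers heights by construction. The probe set rules change the threshold as well, and the cause of their changes was not tested. No paired analysis was possible because there was 1 group. Signal over background limits what can be said of Ect2, Anln, Kif23 and Cdc25c.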

Other observations

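Foxm1, Mybl2, Lin9 and Lin54 encode proteins known to act on the CHR element and were picked for this reason after their values were seen. Foxm1, a transcription factor gene of the late cell cycle, gave log2 levels of 8.67, 8.65 and 8.55 on replicates 1, 2 and 3, 2.52 above the threshold (limma adjusted p = 7.26e-05). Mybl2, the B-Myb gene, had 7.55, 7.99 and 7.89 (limma adjusted p = 0.000381), with replicate 1 the lowest, and was not called against the antigenomic control (limma adjusted p = 0.0615). Of the MuvB core, Lin9 had 7.40, 7.33 and 7.80 (limma adjusted p = 0.00109). Lin9 lost its call against tissue-restricted genes (limma adjusted p = 0.209) and the antigenomic control (limma adjusted p = 0.543). Lin54, whose product binds the CHR letters, had 6.34, 6.23 and 6.47 and did not pass the test (limma adjusted p = 0.127).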
